A study of Homo sapiens with 24 samples.

Results

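Heme is built by a chain of enzymes, and 9 genes of that chain were followed here in K562 cells, a human erythroleukaemia line, in which GATA1 or a putative enhancer of it was repressed. The 9 were taken by name, in pathway order, from the 21925 entries of a gene count table: ALAS1, ALAS2, ALAD, UROS, UROD, CPOX, PPOX, FECH and SLC25A38. All 9 passed the filter on low counts, as did 13147 entries in all, and the lowest count of any member in any library was 158. Other enzymes of the chain were not analysed here.

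All libraries, controls included, came from K562 cells with a doxycycline-inducible Cas9 that lacks nuclease activity and is joined to the KRAB repressor domain, a system called CRISPR interference. Each culture carried 1 sgRNA and had 24 hours of doxycycline. The tested cultures carried 1 of 2 sgRNAs against the GATA1 transcription start site (GATA1TSS, 6 libraries) or 1 of 2 sgRNAs against the element eHDAC6 (6 libraries), and the control cultures carried 1 of 4 non-targeting sgRNAs (NC, 12 libraries). Each of the 8 sgRNAs had 3 biological replicates, and the libraries held polyadenylated RNA of 10000 lysed cells. The design asks what repression of the putative GATA1 enhancer does to the transcriptome, beside repression of the GATA1 start site itself.

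Heme synthesis begins in the mitochondrion, where 5-aminolevulinate synthase joins glycine and succinyl-CoA. ALAS1 encodes the form made in all tissues, which heme itself restrains, and ALAS2 on the X chromosome encodes the erythroid form, a known target of GATA1 whose translation responds to iron. The middle steps run in the cytosol, the last ones in mitochondria, and developing red cells run the whole chain at a high rate to fill haemoglobin.

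GATA1 binds sites with a GATA core, so the 250 bases upstream of the start of transcription were read from the RefSeq promoter table (build GRCh38.p14), in which 8 of the 9 members matched, with 10 windows between them; UROS did not match. The letters AGATAA or AGATAG, and TGATAA or TGATAG, were searched on both strands. A match stood in 4 of the 10 windows, those of ALAS2, CPOX and 1 of the 2 windows each of ALAD and PPOX, and in 22.3% of 35116 promoter windows of the same length. The windows of both aminolevulinate synthase genes are shown because the results turn on the contrast between them, and that of CPOX because it alone held more than 1 match. They lie at chrX:55030978-55031227 on the minus strand for ALAS2, chr3:52197833-52198082 on the plus strand for ALAS1 and chr3:98593612-98593861 on the minus strand for CPOX. Each is written 5′ to 3′ on the gene's own strand, and capitals mark the match.
ALAS2: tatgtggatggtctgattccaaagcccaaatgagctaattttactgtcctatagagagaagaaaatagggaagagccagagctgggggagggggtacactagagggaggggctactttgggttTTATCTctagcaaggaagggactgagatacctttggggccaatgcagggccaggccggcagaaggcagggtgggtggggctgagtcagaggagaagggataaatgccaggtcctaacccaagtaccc
ALAS1: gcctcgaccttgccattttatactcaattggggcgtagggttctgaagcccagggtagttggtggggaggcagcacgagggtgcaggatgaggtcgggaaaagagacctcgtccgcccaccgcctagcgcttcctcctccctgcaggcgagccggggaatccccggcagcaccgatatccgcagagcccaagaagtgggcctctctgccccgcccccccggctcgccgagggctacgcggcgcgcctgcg
CPOX: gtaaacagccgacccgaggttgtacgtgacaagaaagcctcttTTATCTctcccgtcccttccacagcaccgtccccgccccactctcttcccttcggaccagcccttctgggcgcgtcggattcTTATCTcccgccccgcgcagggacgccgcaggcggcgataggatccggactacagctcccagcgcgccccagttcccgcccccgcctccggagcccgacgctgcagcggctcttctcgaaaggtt

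The match in ALAS2 lay 127 to 122 bases before the start, and those in CPOX lay 207 to 202 and 125 to 120 bases before it. The same ALAS2 window held 2 copies of CCACCC (read on the opposite strand, sharing 2 bases), a box of the kind bound by Krüppel-like factors and found in 31.3% of all windows, and no copy of GGGCGG, the GC box found in 42.6%, with both boxes searched on both strands. The ALAS1 window held 2 GC boxes, no CACC box and no GATA match, and its share of G and C was 67.2%, against 52.8% in ALAS2. A match is a string of letters and not a bound site, and these windows do not show whether GATA1 was there in these cells.

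Library totals spanned 4290343 (GATA1TSS-Guide2 replicate 2) to 23205811 counts, and the median was 13479250. GATA1 itself checked the labels. Its log2 change was -2.19 with GATA1TSS (edgeR adjusted p = 2.81e-17) and -0.52 with eHDAC6 (edgeR adjusted p = 6.52e-06), with no overlap between targeted and NC libraries. The control libraries stood apart from each other. On principal component 1 of the NC libraries, which held 26.1% of their variance, 4 libraries (NC-Guide3 replicates 2 and 3, NC-Guide4 replicates 2 and 3; called the 4) lay away from the other 8, and the labels used here name no batch that goes with this. For this reason changes from NC are shown both with all 12 controls and with the 4 alone. The 8 tested genes of a K562 marker list (globins, KLF1, LMO2 and GATA1 among them) summed to between 6250 and 10300 CPM (read counts scaled to a common library size by TMM) with GATA1TSS, 6470 and 9240 with eHDAC6, 7850 and 8950 in the 4 and 12000 and 14300 in the 8. The liver markers ALB, APOA1, SERPINA1 and CYP3A4, of the other main site of heme synthesis, summed to at most 1.14 CPM in any library.

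Levels of different genes can be compared only per length, so CPM was divided by the length of each gene's merged exons in the deposited RefSeq models (hg19), which gives CPM per kb. UROD, the cytosolic decarboxylase of the chain, had the highest level at 328 ± 41.4 CPM per kb (SD over all 24 libraries), and ALAS2 came next at 160.3 ± 31.8. UROS (74.6 ± 12.9), CPOX (70.2 ± 8.37) and PPOX (54.4 ± 13.4) formed a middle group, followed by SLC25A38 (25.6 ± 3.11), FECH (22.0 ± 4.84), ALAS1 (15.7 ± 2.20) and ALAD (11.5 ± 1.76). UROD exceeded ALAS2 in all 24 libraries, and their ranges did not overlap. Of the other neighbours in this order, UROS exceeded CPOX in 17 of 24 libraries and SLC25A38 exceeded FECH in 19, and the order of both pairs went with the set of libraries. UROS was above CPOX in 3 of 6 GATA1TSS libraries, 5 of 6 eHDAC6 libraries, 1 of the 4 and 8 of the 8. SLC25A38 was above FECH in all libraries of both targets and of the 4, and in 3 of the 8. The other neighbours kept their order in 22 to 24 libraries, although their ranges over libraries overlapped. The place of FECH in this order rests on a gene model whose exons cover 7278 bases, against 1354 to 3183 for the other members. No exon of the 9 members overlapped one of another gene in these models.

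**Figure D1:**
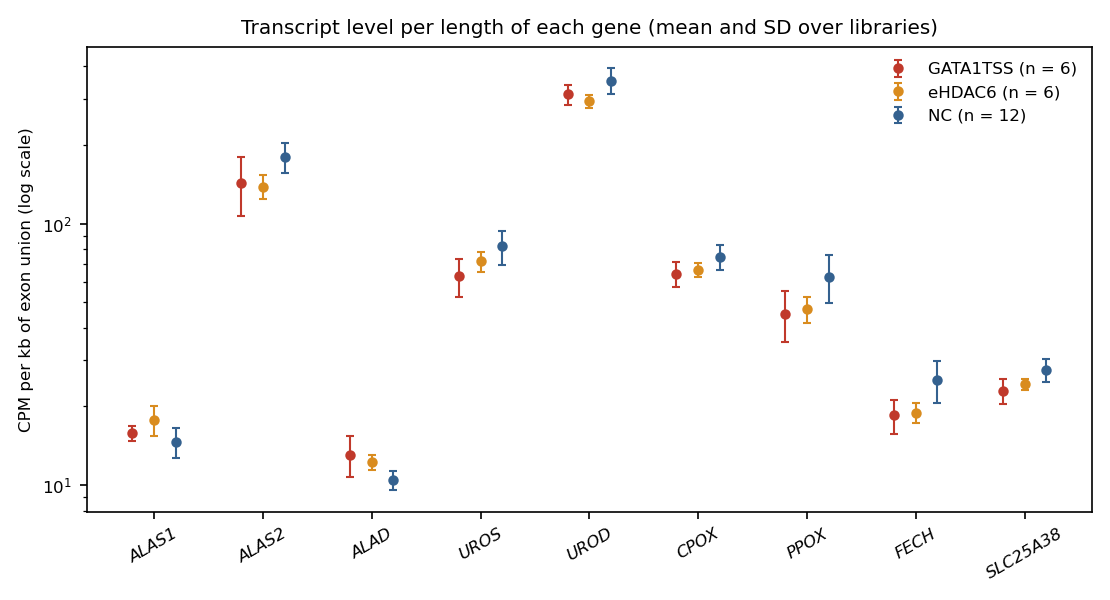
Mean level of each gene in CPM per kb of merged exons (log axis) with the SD over libraries, for GATA1TSS (6 libraries), eHDAC6 (6) and NC (12), in pathway order with SLC25A38 last. UROD and ALAS2 are the highest and ALAD the lowest in each of the 3 groups.

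ALAS2 and ALAS1 catalyse the same step, and with eHDAC6 their transcripts moved apart from the mean of all 12 NC libraries. Against all 12 NC libraries ALAS2 fell with both targets, while ALAS1 rose with eHDAC6 and did not pass with GATA1TSS. That rise was called with eHDAC6-Guide2 alone (log2 0.42, edgeR adjusted p = 0.00397) and not with eHDAC6-Guide1 alone (log2 0.14, edgeR adjusted p = 0.376). Against the 4, neither gene was called with either target. In bulk RNA, fewer cells with a transcript and less of it per cell cannot be told apart.

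ALAS2 (chromosome X, 55035488 to 55057497, minus strand, hg19) had 326, 416 and 355 CPM with GATA1TSS-Guide1 and 286, 199.9 and 248 CPM with GATA1TSS-Guide2. With eHDAC6 the lowest, median and highest of 6 libraries were 255, 308 and 328 CPM, against 313, 378 and 482 CPM over the 12 NC libraries. The groups overlapped: GATA1TSS-Guide1 reached into the control range, GATA1TSS-Guide2 lay wholly below it, and the eHDAC6 libraries touched its lower end. The log2 change was -0.35 with GATA1TSS (SE 0.07, edgeR adjusted p = 0.000518, lower than the NC mean in 5 of 6 libraries) and -0.37 with eHDAC6 (SE 0.07, edgeR adjusted p = 0.000348, 6 of 6). Against the 4 NC libraries, which had 313, 341, 353 and 364 CPM, neither change passed (log2 -0.19, edgeR adjusted p = 0.16, and log2 -0.21, edgeR adjusted p = 0.204). The lowest ALAS2 value of all, 199.9 CPM, was that of the library with the lowest total count.

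ALAS1 (chromosome 3, 52232099 to 52248343, plus strand) stood between 35.7 and 42.0 CPM with GATA1TSS, with a median of 39.2. With eHDAC6-Guide1 it had 44.9, 37.9 and 35.3 CPM and with eHDAC6-Guide2 47.5, 47.1 and 49.0 CPM. The 12 NC libraries ran from 28.5 to 43.5 CPM with a median of 37.3. All 3 eHDAC6-Guide2 libraries lay above every control, whereas those of eHDAC6-Guide1 and of GATA1TSS lay mostly within the control range. The log2 change was 0.28 with eHDAC6 (SE 0.07, edgeR adjusted p = 0.00565, above the NC mean in 5 of 6 libraries) and 0.12 with GATA1TSS (95% interval -0.03 to 0.27, edgeR adjusted p = 0.247). Against the 4 NC libraries, which were themselves at 37.4 to 43.5 CPM, the changes were 0.10 (edgeR adjusted p = 0.583) with eHDAC6 and -0.05 (edgeR adjusted p = 0.739) with GATA1TSS. ALAS1 with eHDAC6 was thus called against all 12 and against the 8 and not against the 4.

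**Figure D2:**
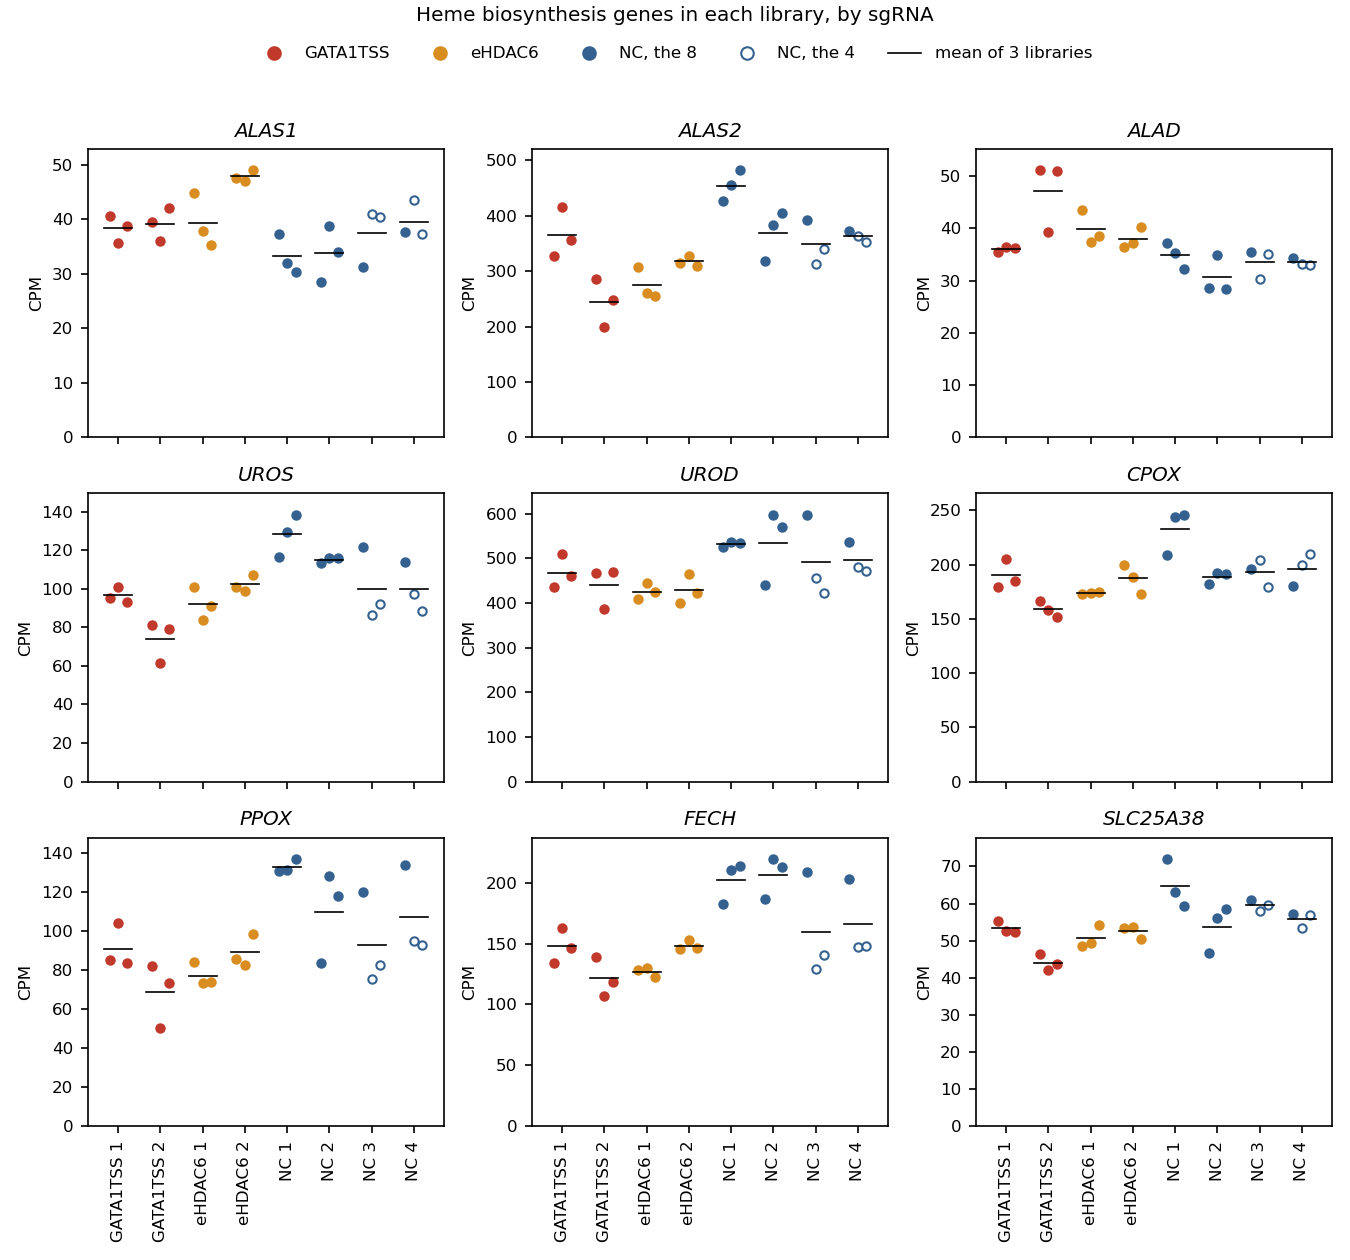
CPM of each gene in each of the 24 libraries (1 point per library, y axes from 0), by sgRNA, with the mean of 3 libraries as a line; open circles are the 4 NC libraries that lie apart on principal component 1. GATA1TSS-Guide2 is the lowest group for ALAS2 and the highest for ALAD, and for FECH and UROS the open circles lie with the targeted libraries, below the filled control points.

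The ratio of ALAS2 to ALAS1 per kb within a library does not depend on how libraries are scaled. It was 9.22, 13.4 and 10.5 with GATA1TSS-Guide1 and 8.30, 6.38 and 6.79 with GATA1TSS-Guide2, between 7.25 and 8.32 in all 6 eHDAC6 libraries, and between 8.79 and 18.3 in the 12 NC libraries. So ALAS2 was the more abundant transcript in every library. All 6 eHDAC6 libraries lay below all 12 NC libraries, and the 3 of GATA1TSS-Guide2 did as well, whereas those of GATA1TSS-Guide1 lay inside the control range. The log2 ratio differed by -0.65 between eHDAC6 and NC (exact two-sided permutation test, p = 0.0003771, p adjusted over 3 ratio tests = 0.001131) and by -0.47 between GATA1TSS and NC (exact permutation p = 0.01514, adjusted 0.02271). Between eHDAC6 and GATA1TSS it differed by -0.17 (exact permutation p = 0.3506).

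Against the 4 NC libraries, with ratios of 8.79 to 10.8, the eHDAC6 libraries again did not overlap the controls. The log2 difference was -0.31 (exact permutation p = 0.004762, the smallest that 6 against 4 can give; adjusted over both tests 0.009524). For GATA1TSS against the 4 it was -0.14 and did not pass (exact permutation p = 0.5238). Libraries of 1 sgRNA share that sgRNA, and with 1 mean per sgRNA the exact p was 0.06667 for eHDAC6, the smallest that 2 against 4 can give, and 0.2667 for GATA1TSS. Without GATA1TSS-Guide2 replicate 2 the GATA1TSS difference from the 12 was -0.38 and no longer passed (exact permutation adjusted p = 0.0734), and without its replicate 3 it was -0.40 (adjusted p = 0.0686).

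**Figure D3:**
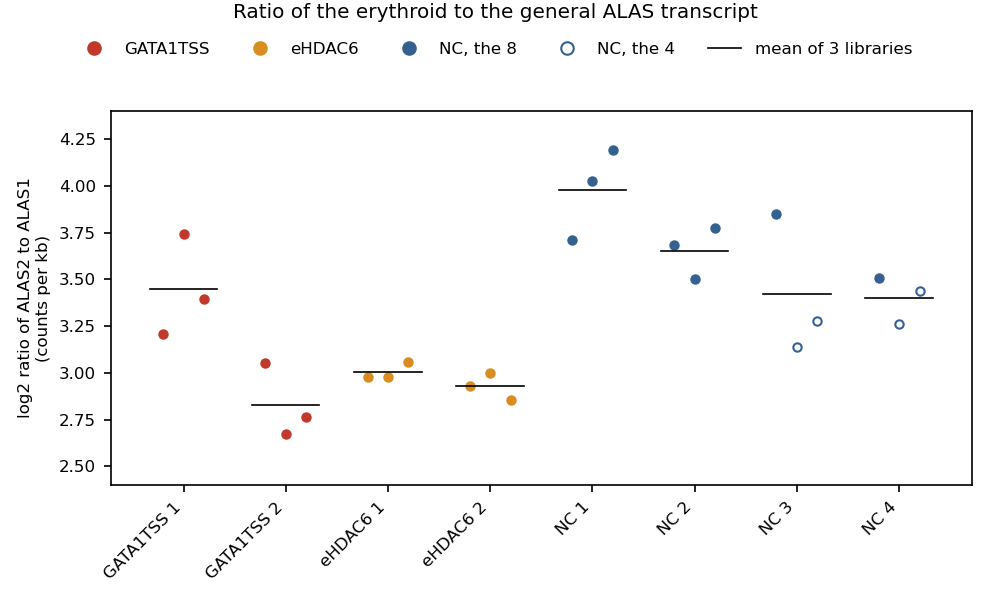
The log2 ratio of ALAS2 to ALAS1 (counts per kb) in each library by sgRNA, with the mean of 3 libraries as a line; the axis does not start at 0. The 6 eHDAC6 points lie between 2.86 and 3.06 on this log2 scale, below every NC point, while GATA1TSS-Guide1 spans 3.21 to 3.74.

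ALAD, the cytosolic enzyme that joins aminolevulinate into porphobilinogen, went the other way from most members and rose with both targets. ALAD (chromosome 9, 116148592 to 116163618, minus strand) had 35.5, 36.4 and 36.2 CPM with GATA1TSS-Guide1, 51.1, 39.3 and 51.1 CPM with GATA1TSS-Guide2, and 36.4 to 43.6 CPM with eHDAC6 (median 37.9). The 12 NC libraries had 28.4 to 37.2 CPM with a median of 33.8. Of the 12 targeted libraries 8 lay above all controls, and the others were in the upper part of the control range. The log2 change was 0.33 with GATA1TSS (SE 0.06, edgeR adjusted p = 0.000314, 6 of 6 libraries above the NC mean) and 0.23 with eHDAC6 (SE 0.06, edgeR adjusted p = 0.00737, 6 of 6). Against the 4 NC libraries, at 30.4 to 35.0 CPM, neither target overlapped the controls. The rise with GATA1TSS was 0.34 there (edgeR adjusted p = 0.00584), and for eHDAC6 the log2 change was 0.24 but did not pass (edgeR adjusted p = 0.131). A lack of overlap with the 4 in the upward direction was seen in 2.27% of genes with GATA1TSS and 1.87% with eHDAC6.

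UROS and UROD, which close the tetrapyrrole ring and trim its side chains in the cytosol, were lower than in the 12 NC libraries. UROS (chromosome 10, 127477147 to 127511837, minus strand) had 61.6 to 101 CPM with GATA1TSS (median 87.3) and 83.8 to 107 CPM with eHDAC6 (median 99.8). The 4 NC libraries had 86.4, 92.2, 97.0 and 88.6 CPM and the other 8 had 113 to 138 CPM. Every targeted library thus lay below the 8, and they spread around the 4 on both sides. The log2 change against all 12 was -0.37 with GATA1TSS (SE 0.07, edgeR adjusted p = 0.000272) and -0.18 with eHDAC6 (SE 0.07, edgeR adjusted p = 0.0477). Against the 4 it was -0.09 with GATA1TSS (edgeR adjusted p = 0.494) and 0.09 with eHDAC6, of the opposite sign (edgeR adjusted p = 0.581). The eHDAC6 call lay near the threshold and was lost in 16 of 24 fits that left out 1 library.

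UROD (chromosome 1, 45477805 to 45481341, plus strand) had 388 to 509 CPM with GATA1TSS (median 464), 399.5 to 464 CPM with eHDAC6 (median 424) and 422 to 598 CPM in the 12 NC libraries (median 530). The groups overlapped, and all targeted libraries lay below the control median. Its log2 change was -0.27 with eHDAC6 (SE 0.07, edgeR adjusted p = 0.00526, 6 of 6 libraries), and with GATA1TSS the log2 change was -0.18 (95% interval -0.32 to -0.03, edgeR adjusted p = 0.0624). Against the 4 neither passed, at -0.0042 with GATA1TSS (edgeR adjusted p = 0.981) and -0.10 with eHDAC6 (edgeR adjusted p = 0.499).

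CPOX, PPOX and FECH carry out the closing steps in mitochondria, where CPOX and PPOX are oxidases and FECH inserts iron. All 3 fell against the 12 NC libraries with both targets. CPOX (chromosome 3, 98298290 to 98312455, minus strand) had 179.6, 205 and 185 CPM with GATA1TSS-Guide1, 167, 158 and 152 CPM with GATA1TSS-Guide2, and 173 to 199.6 CPM with eHDAC6 (median 174). The NC libraries had 179 to 246 CPM with a median of 197. The GATA1TSS-Guide2 libraries lay below all controls, and the others reached into the control range. The log2 change was -0.22 with GATA1TSS (SE 0.05, edgeR adjusted p = 0.00199) and -0.16 with eHDAC6 (SE 0.05, edgeR adjusted p = 0.0161). Against the 4, CPOX fell by 0.18 with GATA1TSS (edgeR adjusted p = 0.0447), and with eHDAC6 the log2 change was -0.13 (edgeR adjusted p = 0.293). The eHDAC6 call against the 12 was lost without eHDAC6-Guide2 replicate 3 and without replicate 2 or 3 of NC-Guide1. NC-Guide1 had higher CPOX than the other control sgRNAs (209, 244 and 246 CPM), and CPOX was the only member called among the 4 NC sgRNAs (edgeR F test, adjusted p = 0.0355), a test that called 12.3% of all genes. Before adjustment 6 of 9 members were under 0.05 in that F test: CPOX, ALAS2, UROS, PPOX, FECH and SLC25A38.

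PPOX (chromosome 1, 161136181 to 161141010, plus strand) had 50.5 to 104 CPM with GATA1TSS (median 83.0) and 73.3 to 98.8 CPM with eHDAC6 (median 83.5). The 4 NC libraries had 75.6 to 94.9 CPM and the other 8 had 83.5 to 137 CPM. FECH (chromosome 18, 55212073 to 55253969, minus strand) had 107 to 163 CPM with GATA1TSS (median 137) and 122.5 to 153 CPM with eHDAC6 (median 138), against 129 to 148 CPM in the 4 and 183 to 219.5 CPM in the 8. For both genes the targeted libraries lay around the 4. For FECH, as for UROS, they did not overlap the 8, and the share of all genes that did the same was not counted. Against all 12, PPOX fell by 0.46 with GATA1TSS (SE 0.11, edgeR adjusted p = 0.00187) and by 0.41 with eHDAC6 (SE 0.11, edgeR adjusted p = 0.00505). FECH fell by 0.44 with GATA1TSS (SE 0.09, edgeR adjusted p = 0.000344) and by 0.41 with eHDAC6 (SE 0.09, edgeR adjusted p = 0.000812). Against the 4, the log2 change of PPOX was -0.10 with GATA1TSS and -0.05 with eHDAC6, and that of FECH -0.07 with GATA1TSS and -0.04 with eHDAC6. None of these passed (edgeR adjusted p of 0.576 to 0.845). PPOX and FECH, the members with the largest falls against all 12 controls, thus had intervals across 0 against the 4, such as -0.20 to 0.07 for FECH with GATA1TSS. The GATA1TSS values averaged unlike sgRNAs. Against the 4, GATA1TSS-Guide2 alone gave -0.29 for PPOX (edgeR adjusted p = 0.0754) and -0.21 for FECH (edgeR adjusted p = 0.075). GATA1TSS-Guide1 alone gave 0.08 for PPOX and 0.07 for FECH (edgeR adjusted p of 0.825 and 0.814).

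SLC25A38, a mitochondrial carrier that brings in the glycine used by aminolevulinate synthase, also fell. SLC25A38 (chromosome 3, 39424815 to 39438819, plus strand) had 55.3, 52.5 and 52.4 CPM with GATA1TSS-Guide1 and 46.3, 42.1 and 43.6 CPM with GATA1TSS-Guide2. With eHDAC6 it had 48.5 to 54.1 CPM (median 51.9), against 46.6 to 72.0 CPM in NC (median 58.1). All targeted libraries lay below the control median, and the lowest control was NC-Guide2 replicate 1. The log2 change was -0.26 with GATA1TSS (SE 0.05, edgeR adjusted p = 0.000714) and -0.18 with eHDAC6 (SE 0.05, edgeR adjusted p = 0.0155), lower than the NC mean in 6 of 6 libraries each. Against the 4, at 53.3 to 59.7 CPM, it fell by 0.22 with GATA1TSS (edgeR adjusted p = 0.0188), and with eHDAC6 the log2 change was -0.14 (edgeR adjusted p = 0.275).

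Counted over the 9 members, GATA1TSS against all 12 NC libraries gave 6 falls and 1 rise, in a test that called 27.2% of all genes (13.5% higher and 13.7% lower). The eHDAC6 comparison gave 7 falls and 2 rises, where 31.1% of all genes were called (15.8% higher and 15.3% lower). The median log2 change of the members was -0.26 with GATA1TSS and -0.18 with eHDAC6. Over all genes tested it was -0.00286 with GATA1TSS and -0.00859 with eHDAC6. Both comparisons share the 12 control libraries, so their likeness is not independent. Against the 4 NC libraries, GATA1TSS gave 1 rise (ALAD) and 2 falls (CPOX and SLC25A38) with 10.1% of all genes called, and eHDAC6 gave 0 calls with 1.48% called. Before adjustment 4 members were under 0.05 there by edgeR (ALAS2, ALAD, CPOX and SLC25A38). Against the 8, GATA1TSS gave 2 rises and 7 falls (34.4% of all genes called) and eHDAC6 2 rises and 6 falls (38.9%). Of the K562 marker genes, which include the repressed gene GATA1 itself, 8 of 8 fell against all 12 with each target. Against the 4, 2 of 8 fell with GATA1TSS (GATA1 and KLF1) and 1 of 8 with eHDAC6 (GATA1). Of markers of other blood lineages against the 12, 1 of 3 tested myeloid genes rose with each target and 0 of 2 megakaryocyte genes were called. Of 4 lymphocyte genes, 3 rose with GATA1TSS and 1 with eHDAC6. The myeloid gene that rose was SPI1, a transcription factor, by 0.71 with GATA1TSS (edgeR adjusted p = 1.4e-06) and by 0.70 with eHDAC6 (edgeR adjusted p = 5.3e-06). Against the 4 it rose by 0.28 (edgeR adjusted p = 0.0053) and 0.27 (edgeR adjusted p = 0.0287) with the same targets, while LYZ and FCGR3A, the other 2 myeloid genes, were not called. The part of these markers in the change of the heme genes was not tested. The p-values measure the spread between libraries of an sgRNA and hold no variation from sgRNA to sgRNA. With counts summed per sgRNA, so that this variation was the error, edgeR called 0 members with either target, and 5 with each were under 0.05 before adjustment. Of all genes, that fit called 4.59% with GATA1TSS and 1.93% with eHDAC6.

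**Figure D4:**
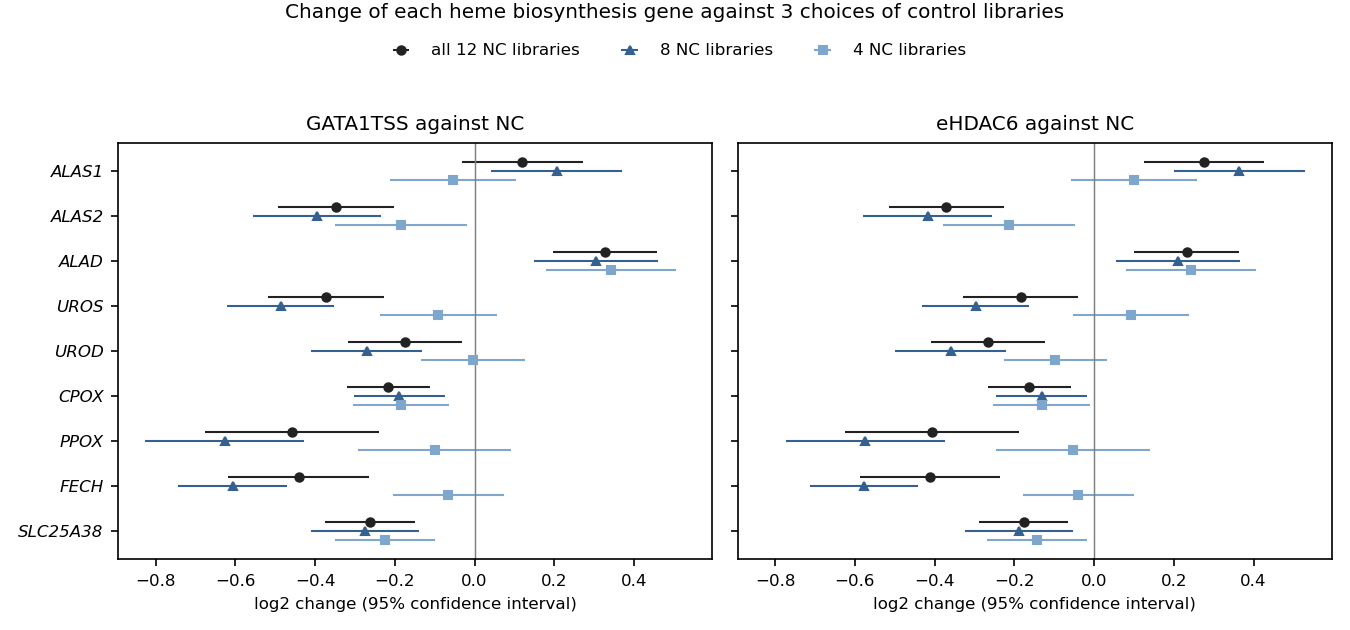
The log2 change of each gene with GATA1TSS (left) and eHDAC6 (right) against all 12 NC libraries (circles), the 8 (triangles) and the 4 (squares), with 95% confidence intervals from edgeR. Moving the reference to the 4 brings UROS, UROD, PPOX and FECH close to 0 as means over the sgRNAs of a target, whereas ALAD keeps its value (0.33 and 0.34 with GATA1TSS).

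Both sgRNAs of GATA1TSS lowered GATA1 to different degrees, to 53.1 ± 9.66 CPM with Guide2, against 116.5 ± 18.0 CPM with Guide1 (SD, n = 3 each), and the heme genes differed between them as well. ALAS2 was lower with Guide2 than with Guide1 by 0.57 on the log2 scale (SE 0.11, edgeR adjusted p = 0.00413), and ALAD was higher by 0.41 (SE 0.10, edgeR adjusted p = 0.0234). These 2 were the members called, where 3.48% of all genes were. In 6 members the 3 libraries of Guide2 lay apart from the 3 of Guide1: ALAS2, ALAD, UROS, CPOX, PPOX and SLC25A38. Between the eHDAC6 sgRNAs, where 0 members were called, 3 members lay apart in the same way. Separation was thus not particular to the called members, and how many of all genes did the same was not counted. For UROS, CPOX, PPOX and SLC25A38 the log2 differences were -0.36, -0.26, -0.37 and -0.27, and they did not pass (edgeR adjusted p of 0.0778 to 0.247). The ALAD call was lost in 5 of 24 fits that left out 1 library, when any Guide1 library or replicate 1 or 3 of Guide2 was left out. Guide2 includes the library with the lowest total count, and without it the ALAS2 difference was -0.45 (edgeR adjusted p = 0.0336).

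Taken alone against the 12 NC libraries, GATA1TSS-Guide1 had 0 members called by edgeR (3 before adjustment), although 12.4% of all genes were (FECH came nearest, log2 -0.30, edgeR adjusted p = 0.0673). GATA1TSS-Guide2 had 7 called, with 23.3% of all genes. Against the 4 NC libraries, GATA1TSS-Guide1 again had 0, before adjustment as well (0.631% of all genes called), and its ALAS2 value was 0.10 above the controls on the log2 scale (edgeR adjusted p = 0.743). GATA1TSS-Guide2 had 5 called against the 4 (17.6% of all genes): ALAS2 fell by 0.48 (edgeR adjusted p = 0.000967), UROS by 0.28 (edgeR adjusted p = 0.036), CPOX by 0.32 (edgeR adjusted p = 0.00313) and SLC25A38 by 0.36 (edgeR adjusted p = 0.00221), and ALAD rose by 0.55 (edgeR adjusted p = 0.00042). Before adjustment 7 members were under 0.05 with GATA1TSS-Guide2 against the 4, PPOX and FECH among them. The calls against the 4 with GATA1TSS thus rested on Guide2, the sgRNA with less GATA1.

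The eHDAC6 sgRNAs gave near-equal GATA1, and 0 members differed between them by edgeR's adjusted p, with 2 genes called in all (0.0152%). Before adjustment 1 member was under 0.05, ALAS1, which was higher with Guide2 by 0.28 (unadjusted p = 0.0268, edgeR adjusted p = 1). DESeq2 and the other settings that kept all libraries also called 0. Alone against the 12 NC libraries, eHDAC6-Guide1 had 5 members called (15.2% of all genes) and eHDAC6-Guide2 had 2, ALAS1 and ALAS2 (17% of all genes). Against the 4, edgeR called 0 members with eHDAC6-Guide1 (4 before adjustment) and 0.304% of all genes, and with eHDAC6-Guide2 0 members (2 before adjustment) and 1.36% of all genes.

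GATA1 was far lower with GATA1TSS than with eHDAC6, and the heme genes were compared directly between the targets. With eHDAC6 against GATA1TSS, edgeR called 0 of 9 members and 1.53% of all genes. UROS had the smallest unadjusted p (0.0282), with a log2 difference of 0.19 (95% interval 0.02 to 0.36, edgeR adjusted p = 0.27), and it was the only member under 0.05 before adjustment. For ALAS2 the difference was -0.02 with an interval of -0.19 to 0.14, for ALAS1 0.16 (-0.02 to 0.33), for ALAD -0.09 (-0.25 to 0.06) and for FECH 0.03 (-0.17 to 0.23). The intervals leave room for differences of that size and do not show that the targets act alike. When GATA1TSS-Guide2 alone stood for the start site, 1 member was called, UROS, at 0.37 higher with eHDAC6 (edgeR adjusted p = 0.0322), where 6.95% of all genes were called. Before adjustment 5 members were under 0.05 there. The ALAS2 value of -0.02 averaged sgRNAs that differed in sign. Its log2 difference was 0.27 against GATA1TSS-Guide2 alone (SE 0.10, edgeR adjusted p = 0.0989). Against GATA1TSS-Guide1 alone it was -0.31 (SE 0.09, edgeR adjusted p = 0.429).

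The members also varied together across libraries. Over the 24 libraries, which share their sgRNAs and the split among controls, log2 CPM of ALAS2 had a Pearson correlation of 0.908 with PPOX, 0.867 with UROS, 0.842 with FECH and 0.832 with CPOX. UROD and SLC25A38 followed with 0.734 and 0.779, so that all 6 members from UROS to SLC25A38 varied with ALAS2. ALAS1 correlated at -0.331 with ALAS2 and at 0.439 with ALAD, and ALAD at -0.498 with ALAS2. Among 9973 genes that averaged 5 CPM or more, those most like ALAS2 over the same libraries included SLC2A1, a glucose transporter (0.927), SIAH2, a ubiquitin ligase (0.918), the member PPOX, and HBA1, an alpha globin gene with a near-identical copy, so that its count is uncertain (0.899). Those most like ALAS1 were WDR59 (0.828), the read-through gene P2RX5-TAX1BP3, whose reads overlap those of its neighbours (0.826), BTN2A1 (0.823), PIK3R2 (0.819) and GGA3 (0.816). Within sgRNAs the correlations were lower for most of these genes, such as 0.793 for SLC2A1 and 0.817 for PPOX with ALAS2 and 0.661 for GGA3 with ALAS1. HBA1 kept 0.899 with ALAS2. The split among controls runs inside NC-Guide3 and NC-Guide4, so the correlations within sgRNAs still hold it. The share of all genes that correlated with ALAS2 as highly as the members did was not counted. These correlations are descriptions across libraries that are not independent of each other.

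Genes that feed or support the chain were followed in 4 lists, whose counts stand beside these shares of all genes. Against the 12, 13.7% fell and 13.5% rose with GATA1TSS, and 15.3% fell and 15.8% rose with eHDAC6. Against the 4, 10.1% were called in either direction with GATA1TSS and 1.48% with eHDAC6. In the list of substrate supply, 3 of 8 tested genes fell with each target against the 12 NC libraries and 0 rose. SLC6A9, a glycine transporter, was at 25.1 ± 7.29 CPM with GATA1TSS and 34.8 ± 4.90 CPM with eHDAC6 (SD, n = 6 each), against 81.8 ± 34.9 CPM in NC (n = 12). The log2 change was -1.66 with GATA1TSS (SE 0.22, edgeR adjusted p = 3.63e-06) and -1.20 with eHDAC6 (SE 0.22, edgeR adjusted p = 0.000224). Of the controls, the 4 averaged 37.4 ± 1.69 CPM and the other 8 averaged 104 ± 14.9 CPM. SHMT2, the mitochondrial enzyme that makes glycine from serine, fell by 0.61 with GATA1TSS (edgeR adjusted p = 7.56e-06) and by 0.50 with eHDAC6 (edgeR adjusted p = 0.000146). SUCLG1, a subunit of succinyl-CoA synthetase, fell by 0.14 with GATA1TSS (edgeR adjusted p = 0.0197) and by 0.13 with eHDAC6 (edgeR adjusted p = 0.0262). Against the 4, SLC6A9 fell by 0.56 (edgeR adjusted p = 0.000676) and SHMT2 by 0.26 (edgeR adjusted p = 0.00496) with GATA1TSS, and 0 of 8 were called with eHDAC6. Exons of SLC6A9 and SHMT2 overlap a gene on the opposite strand by 44 and 33 bases, and whether strand was used in counting is not given in the sources used here.

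Of 9 tested genes for mitochondrial transport and support, 4 fell and 1 rose with each target. TMEM14C, which carries a porphyrin intermediate across the inner membrane, fell by 0.33 with GATA1TSS (edgeR adjusted p = 3.45e-05) and by 0.20 with eHDAC6 (edgeR adjusted p = 0.00487). SLC25A37 (mitoferrin 1), the iron carrier of erythroid mitochondria, fell by 0.32 with GATA1TSS (edgeR adjusted p = 0.000227) and by 0.17 with eHDAC6 (edgeR adjusted p = 0.0284). SLC25A28, its counterpart in other tissues, rose by 0.28 with GATA1TSS (edgeR adjusted p = 0.0124) and by 0.30 with eHDAC6 (edgeR adjusted p = 0.00607). ATPIF1, the inhibitor of the mitochondrial ATPase, fell with both targets, HEBP1 with GATA1TSS and PGRMC1 with eHDAC6. Against the 12 NC libraries, the 2 iron carriers thus moved in opposite directions, as the 2 aminolevulinate synthases did with eHDAC6. Against the 4, 0 of these 9 genes were called with either target, and the log2 change of SLC25A28 was 0.11 with GATA1TSS (edgeR adjusted p = 0.6) and 0.14 with eHDAC6 (edgeR adjusted p = 0.594).

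Of 11 tested genes of iron-sulfur cluster assembly, 4 fell and 0 rose with each target. HSPA9, a mitochondrial chaperone, fell by 0.51 with GATA1TSS (edgeR adjusted p = 1.3e-05) and by 0.50 with eHDAC6 (edgeR adjusted p = 2.87e-05). GLRX5, a mitochondrial glutaredoxin, fell by 0.35 with GATA1TSS (edgeR adjusted p = 3e-05) and by 0.33 with eHDAC6 (edgeR adjusted p = 7.28e-05). BOLA3 was among the others that fell with GATA1TSS, and LYRM4 and ISCA1 fell with eHDAC6. Against the 4, HSPA9 had smaller log2 changes that did not pass, -0.15 with GATA1TSS (edgeR adjusted p = 0.0995) and -0.14 with eHDAC6 (edgeR adjusted p = 0.226). In that comparison GLRX5 fell by 0.21 (edgeR adjusted p = 0.0253) and FDXR by 0.37 (edgeR adjusted p = 0.00252) with GATA1TSS, and 0 were called with eHDAC6. In the list of heme a and c synthesis and heme breakdown, 2 of 6 fell with GATA1TSS and 1 of 6 with eHDAC6. The eHDAC6 count was near the share of all genes that fell there (15.3%). BLVRB, which reduces biliverdin, fell by 0.42 with GATA1TSS (edgeR adjusted p = 1.25e-06) and by 0.21 with eHDAC6 (edgeR adjusted p = 0.0036). Against the 4 it fell by 0.36 with GATA1TSS (edgeR adjusted p = 0.000101), and the log2 change with eHDAC6 was -0.15 (edgeR adjusted p = 0.184). COX15, with GATA1TSS only, was the other called gene of that list, and its exons overlap genes on the opposite strand.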

How the data were processed

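The authors deposited whole-number read counts per gene symbol for all 24 libraries, with no normalization, and a file of RefSeq gene models on hg19 whose positions and exons were used for gene lengths (unit other). The tools in the submitters' processing notes are SAMtools 0.1.19, TopHat2 2.0.8, Bowtie2 2.1.0 and Picard, with the build hg19, and the labels' protocols name a strand-specific library. How reads were counted, and with what use of strand, is not given in the sources used here.

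Groups were taken from the labels. Genes were kept with edgeR's filter by sgRNA (minimum count 10, minimum total 15, proportion 0.7) and fitted with edgeR 4.0.16 in R 4.3.3 (limma 3.58.1, TMM scaling with factors of 0.951 to 1.03, quasi-likelihood F test, 1 coefficient per sgRNA over 24 libraries). An element was the mean of its sgRNAs. The 13147 tested genes were adjusted together (Benjamini-Hochberg), and calls were made at an adjusted p under 0.05. SE and 95% intervals were derived from the F statistic. Levels are CPM, counts scaled to a common library size, on the deposited counts, and depth (4290343 to 23205811 counts per library) limits the precision of low values. The ALAS2 to ALAS1 ratio used a pseudocount of 0.5 counts and exact permutations of libraries. Correlations and the principal component (2000 most variable genes) used log2 CPM with a prior count of 2. No pair of libraries was identical. The script was tested on simulated counts.

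The 9 members, the lists and the comparisons were chosen with earlier results of these data known. Named list genes were up to 5 called rises and 5 called falls per list and element, and genes called against the 4 were named besides. Alternatives tried were the control subsets, DESeq2 1.42.0, its size factors, 2 other filters, a replicate block, models with sgRNA variation in the error, and fits without each library or sgRNA. Each targeted sgRNA alone against the 4 was added after seeing the data. Some genes that these rules would name are not reported here by name, although they remain in the counts and sums.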

Additional observations from a re-analysis of the deposited data

Results flagged for a closer look

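Between the sgRNAs of GATA1TSS, 2 members differed by a test of the difference itself. ALAS2 had a log2 difference of -0.57 for GATA1TSS-Guide2 minus GATA1TSS-Guide1 (SE 0.11, edgeR adjusted p = 0.00413, lower in 3 of 3 libraries), and ALAD a difference of 0.41 (SE 0.10, edgeR adjusted p = 0.0234, higher in 3 of 3). GATA1 differed between the same sgRNAs by -1.10 (SE 0.11, edgeR adjusted p = 2.59e-06). Whether the difference in GATA1 has a part in those of ALAS2 and ALAD was not tested.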

How the results depend on the processing

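Members called for GATA1TSS against NC numbered 7, and 3 against the 4 control libraries, 0 with counts summed per sgRNA, 0 without GATA1TSS-Guide2 and 0 without it against the 4. For eHDAC6 against NC the 9 became 0 against the 4, 0 with summed counts, 2 without eHDAC6-Guide1, 5 without eHDAC6-Guide2, and 0 against the 4 without either sgRNA. The cause was not tested. DESeq2's size factors, its test, both other filters and 1 coefficient per element left 7 called for GATA1TSS and 6 to 9 for eHDAC6. Between eHDAC6 and GATA1TSS, 0 became 1 without GATA1TSS-Guide1; between the GATA1TSS sgRNAs, 2 became 4 with DESeq2; among the NC sgRNAs, 1 became 3 without a filter, 0 with a filter of 1 CPM in 6 libraries and 3 with DESeq2. The ratio call for GATA1TSS was lost against the 4 (-0.14), and with sgRNA means both calls (-0.47 and -0.65 for eHDAC6) were lost, where 2 against 4 cannot pass. No scaling changed a direction.

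No member value that turned sign was called. Against the 4, with GATA1TSS, ALAS1 was -0.0538; without GATA1TSS-Guide1 it was -0.0367; without GATA1TSS-Guide2, ALAS1 was -0.0797, ALAS2 0.0957, UROS 0.0839, UROD 0.033, PPOX 0.0785 and FECH 0.0657. With eHDAC6, UROS was 0.0931; without eHDAC6-Guide1, UROS was 0.17, PPOX 0.0492 and FECH 0.0727; without eHDAC6-Guide2, ALAS1 was -0.0493 and UROS 0.0065. For eHDAC6 against GATA1TSS, ALAS2 was 0.082 without eHDAC6-Guide1 and 0.27 without GATA1TSS-Guide1; PPOX was -0.0503 and FECH -0.0827 without eHDAC6-Guide2; and without GATA1TSS-Guide2, ALAD was 0.11, CPOX -0.0735, PPOX -0.13, FECH -0.11 and SLC25A38 -0.0511.

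With 1 library left out, members called ran from 7 to 8 (GATA1TSS), 7 to 9 (eHDAC6), 1 to 3 (GATA1TSS sgRNAs), 0 to 5 (NC sgRNAs) and 0 to 0 otherwise. The ratio differences ran from -0.60 to -0.38 (GATA1TSS), -0.69 to -0.59 (eHDAC6) and -0.27 to -0.05 (eHDAC6 against GATA1TSS). Uncalled members changed sign for eHDAC6 against GATA1TSS in ALAS2 (-0.0826 to 0.0438), PPOX (-0.0209 to 0.13) and FECH (-0.0072 to 0.0893), for GATA1TSS-Guide2 against Guide1 in ALAS1 (-0.0117 to 0.0869), and for eHDAC6-Guide2 against Guide1 in ALAD (-0.11 to 0.0027) and UROD (-0.0495 to 0.0597).

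Across all sgRNAs, replicate numbers did not pair the libraries in general. Of 84 correlations between same-numbered libraries 7 were over 0.1 (range -0.197 to 0.431, median 0.0158), and 9 of 24 libraries were nearest to their own number. Between NC-Guide3 and NC-Guide4 they were 0.431, 0.0779 and 0.175 for replicates 1, 2 and 3. In both of these sgRNAs replicates 2 and 3 belonged to the 4 and replicate 1 to the 8. With the replicate block 7 members were called for GATA1TSS and 9 for eHDAC6, and 2 in place of 1 among the NC sgRNAs; the block gave 0 for eHDAC6 against GATA1TSS, 2 between the GATA1TSS sgRNAs and 0 between those of eHDAC6, and ratio differences of -0.47, -0.65 and -0.17.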

Other observations

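The members differed in how widely they varied between libraries. Over all 24 libraries the coefficient of variation of CPM was 24.7% for PPOX, 22% for FECH and 19.8% for ALAS2, and 11.9% for CPOX and 12.2% for SLC25A38. Within the 6 eHDAC6 libraries it was 4.72% for SLC25A38 to 13% for ALAS1. Within the 6 GATA1TSS libraries it was 6.53% for ALAS1 to 25.4% for ALAS2, so that ALAS1 was the member with the smallest spread there and ALAS2 the one with the largest. In the 12 NC libraries PPOX (20.8%) and FECH (18.1%) had the largest spread and ALAD (8.41%) the smallest.

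Marker sums of other lineages were below those of K562 genes in every library, and some of these markers were called. Myeloid markers summed to between 172 and 230 CPM with GATA1TSS, 190 and 206 with eHDAC6, 166 and 177 in the 4 NC libraries and 127 and 165 in the other 8. Lymphocyte markers summed to 28.4 to 53.9 CPM with GATA1TSS, 26 to 40.4 with eHDAC6 and 16.8 to 35.3 in NC, and megakaryocyte markers to 29.3 to 40.2, 32.3 to 44 and 24.1 to 54.1 CPM in the same groups. Fibroblast and epithelial markers summed to 954 to 1320 CPM with GATA1TSS, 1160 to 1380 with eHDAC6, 1220 to 1420 in the 4 and 835 to 1360 in the 8. No marker of these lists was at 0 in all libraries of a group. Of 4 tested lymphocyte markers, 3 rose with GATA1TSS and 1 with eHDAC6 against the 12 NC libraries, and 2 with GATA1TSS and 0 with eHDAC6 against the 4 by edgeR. Among all genes, 13.5% rose with GATA1TSS and 15.8% with eHDAC6 against the 12. Against the 4, 10.1% were called in either direction with GATA1TSS and 1.48% with eHDAC6. COL1A1 rose with GATA1TSS by 0.67 against the 12 (edgeR adjusted p = 0.00926) and by 1.49 against the 4 (edgeR adjusted p = 5.72e-06), while EPCAM fell by 0.46 (edgeR adjusted p = 1.23e-06) and 0.28 (edgeR adjusted p = 0.0085). Against the 8 with GATA1TSS, COL1A1 was not called (log2 0.31, edgeR adjusted p = 0.0848) and EPCAM fell by 0.50 (edgeR adjusted p = 7.08e-07). With eHDAC6, COL1A1 fell by 0.72 against the 8 (edgeR adjusted p = 0.000448) and was not called against the 4 (log2 0.46, edgeR adjusted p = 0.239).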
